A study of Homo sapiens and Mus musculus with 20 samples.

Results

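Chromatin accessibility was described across the metallothionein gene cluster of human chromosome 16 in SW480, an established colorectal adenocarcinoma cell line. The cluster was defined by 10 listed genes (MT4, MT3, MT2A, MT1E, MT1M, MT1A, MT1F, MT1G, MT1H and MT1X) with 20 kb before the first and after the last of them, chr16:56545073-56704196 of GRCh38, a window of 159124 bp. The peaks of the 12 SW480 libraries, merged where they overlapped, gave 44 regions in this window among 252173 regions in all. The assay was ATAC-seq, where a transposase cuts open DNA and attaches sequencing adapters, and each library began with 50000 viable cells. The 2 treatments in the labels were sodium propionate (NaPr) at 10 mM and sodium butyrate (NaBu) at 1 mM, each for 12 to 16 h in 3 libraries, and each had its own 3 untreated libraries (0 mM). The design text of the series names the doses in the reverse order, and the values of the sample labels were used. The NaPr and NaBu experiments carried different dates in the labels, so a difference between them cannot be told apart from date or culture, and the compounds were not compared because their doses differed. All groups share a single cell line, and nothing in the labels says that replicates came from separate cultures, so p-values measure only the spread between these libraries, which may be technical. The remaining 8 libraries of the series are from mouse CT26 cells and were not used.

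Metallothioneins are small cysteine-rich proteins that bind zinc and copper, and cadmium when it is present. Their genes are induced by metals through the zinc-sensing transcription factor MTF1, which binds metal response elements in their promoters. MT2A and the MT1 genes are widely expressed, including in intestinal epithelium, whereas MT3 is known mainly from the brain and MT4 from stratified squamous epithelium.

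Each list held between 108442 and 144398 peak intervals, and sequencing depth is not given in the lists. The lowest background pileup of a library, recovered from its listed fold and p, was between 0.936 and 3.03 tags. Promoter regions of colon epithelium markers had a peak in all 12 libraries for 6 of 9 genes, and CDX1 was the only marker without any. Of 7 markers of other cell types, 5 (PTPRC, CD3E, COL3A1, CDH5 and ALB) had no promoter peak in any library, PECAM1 had a peak in 2 libraries and COL1A1, a collagen gene, in all 12. COL1A1 rose after NaBu (change 3.59 percentile points, adjusted p = 0.00162), as did 15.8% of all regions. Of the epithelial marker regions, 1 of 7 tested after NaPr and 1 of 13 after NaBu were lower and 0 higher, with 3.81% and 12.5% of all regions lower in these comparisons. The part of these in the cluster results was not tested.

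Shown are the promoters of the 4 listed genes that had an entry in the promoter table, with their copies of the metal response element core. Each is 250 bases up to the base before the RefSeq start (GRCh38.p14, plus strand, written 5′ to 3′). Capitals mark matches to TGCACNC or TGCGCNC on either strand. MT2A, MT1X and MT4 had a peak in at least 1 library and MT1H had none. MT3, MT1E, MT1M, MT1A, MT1F and MT1G had no entry in the promoter table.
MT2A, chr16:56608334-56608583: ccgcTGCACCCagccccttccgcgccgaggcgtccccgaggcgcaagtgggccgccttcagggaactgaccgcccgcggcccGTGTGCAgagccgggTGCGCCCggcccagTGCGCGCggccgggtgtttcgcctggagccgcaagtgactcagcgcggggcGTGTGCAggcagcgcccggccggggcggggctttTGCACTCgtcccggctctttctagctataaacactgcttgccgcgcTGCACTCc
MT1X, chr16:56682220-56682469: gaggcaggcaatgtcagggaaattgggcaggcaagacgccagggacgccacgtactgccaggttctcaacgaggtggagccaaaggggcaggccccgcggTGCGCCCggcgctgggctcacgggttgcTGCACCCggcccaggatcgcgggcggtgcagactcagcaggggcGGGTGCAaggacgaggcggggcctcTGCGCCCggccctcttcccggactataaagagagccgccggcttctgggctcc
MT1H, chr16:56669564-56669813: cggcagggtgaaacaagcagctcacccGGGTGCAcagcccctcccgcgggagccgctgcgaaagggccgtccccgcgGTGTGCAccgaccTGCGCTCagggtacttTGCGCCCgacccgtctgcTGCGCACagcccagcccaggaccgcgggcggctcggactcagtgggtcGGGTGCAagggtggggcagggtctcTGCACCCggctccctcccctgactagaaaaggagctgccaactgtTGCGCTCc
MT4, chr16:56564823-56565072: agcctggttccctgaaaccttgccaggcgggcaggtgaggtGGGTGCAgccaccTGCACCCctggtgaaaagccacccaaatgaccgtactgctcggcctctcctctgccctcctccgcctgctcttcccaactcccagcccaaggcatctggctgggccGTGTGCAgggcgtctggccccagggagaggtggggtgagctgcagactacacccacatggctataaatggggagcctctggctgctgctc
The core was found 8 times before MT1H, 7 times before MT2A, 4 times before MT1X and 3 times before MT4, while 24.8% of 35116 RefSeq promoters of the same length held it at least once. The order of these counts was not the order of accessibility, since MT1H had no listed peak. MT2A also held the AP-1 motif (TGACTCA or TGAGTCA) 1 time, a motif found in 4.20% of promoters, and the GC box (GGGCGG) 2 times, found in 42.6%. A match describes the letters only, and binding was not measured.

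A further pair of sequences, 200 bases of the plus strand around the highest-ranked summit of the 12 libraries, is shown for the region that gained a peak after NaPr and for the region with the lowest adjusted p among those that rose after NaBu, both of them away from any promoter. For the first of them that summit came from NaBu replicate 3, and 2 of the 3 NaPr summits lay inside the printed bases. Each held the metal response element core 1 time, as did 18.3% of 8165 windows of this length around chromosome 16 summits.
Region in an intron of BBS2 called after NaPr, chr16:56558417-56558616: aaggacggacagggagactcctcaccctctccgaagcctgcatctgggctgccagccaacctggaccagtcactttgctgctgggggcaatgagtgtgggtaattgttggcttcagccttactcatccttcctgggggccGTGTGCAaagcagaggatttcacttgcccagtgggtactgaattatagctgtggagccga
Region before MT1F that rose after NaBu, chr16:56654322-56654521: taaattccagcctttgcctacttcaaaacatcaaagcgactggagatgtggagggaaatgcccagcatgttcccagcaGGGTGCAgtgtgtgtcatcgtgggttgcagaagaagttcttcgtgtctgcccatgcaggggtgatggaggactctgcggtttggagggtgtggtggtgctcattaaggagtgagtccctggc

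The listed genes MT3, MT2A, MT1E, MT1F and MT1X had a peak within 1 kb of the gene start in 12 of 12 libraries. To place each region among all others, its highest −log10 p in a library was turned into a percentile rank from 0 to 100 among all 252173 regions, with regions without a listed peak at 0. A listed region could not rank below a value between 53.8 and 61.6, depending on the library, so a lost peak appears as a large drop. In the untreated libraries of the NaPr experiment the order was MT1F (96.7 ± 0.792, SD, n = 3), MT1X (96.0 ± 0.919), MT1E (95.9 ± 1.01), MT2A (94.2 ± 0.794), MT1A (86.1 ± 1.23) and MT3 (85.6 ± 1.4). The ranges of MT1F, MT1X and MT1E overlapped, the highest MT2A library reached the lowest of MT1X and MT1E, and MT1A and MT3 overlapped. In the untreated libraries of the NaBu experiment the order was MT1X (95.3 ± 1.20), MT2A (95.2 ± 0.771), MT1E (92.7 ± 1.09), MT1F (82.8 ± 2.59) and MT3 (80.6 ± 4.89). MT1X and MT2A overlapped there, as did MT1F and MT3. The region over the MT2A start held separate summits in each of the 12 libraries, at 0 to 15 bp from the start, 146 to 170 bp before it and 1089 to 1101 bp before it. Its rank came from the most upstream of these in the 6 libraries of the NaPr experiment, from the start in the 3 untreated libraries of the NaBu experiment and from the summit between them in the 3 NaBu libraries. These ranks compare p at a summit, not signal summed over a region's length.

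The remaining listed genes were rarely accessible. MT1G had a promoter peak in 2 of 12 libraries, MT4 and MT1M in 1 each and MT1H in 0. MT1B, a metallothionein gene inside the cluster that is not among the listed genes, had a promoter peak in 1 library. A peak that is not listed lies below the weakest −log10 p kept in that list, between 3.37 and 9.38, and was not detectable there. Sequence shared with a paralogue can remove reads: of all 50-base stretches within 1 kb of a listed gene start, those found more than 1 time in the window made up 7.43% for MT1M, 4.20% for MT1G, 3.13% for MT2A and at most 2.36% for the others. Its part in the missing peaks was not tested.

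**Figure D1:**
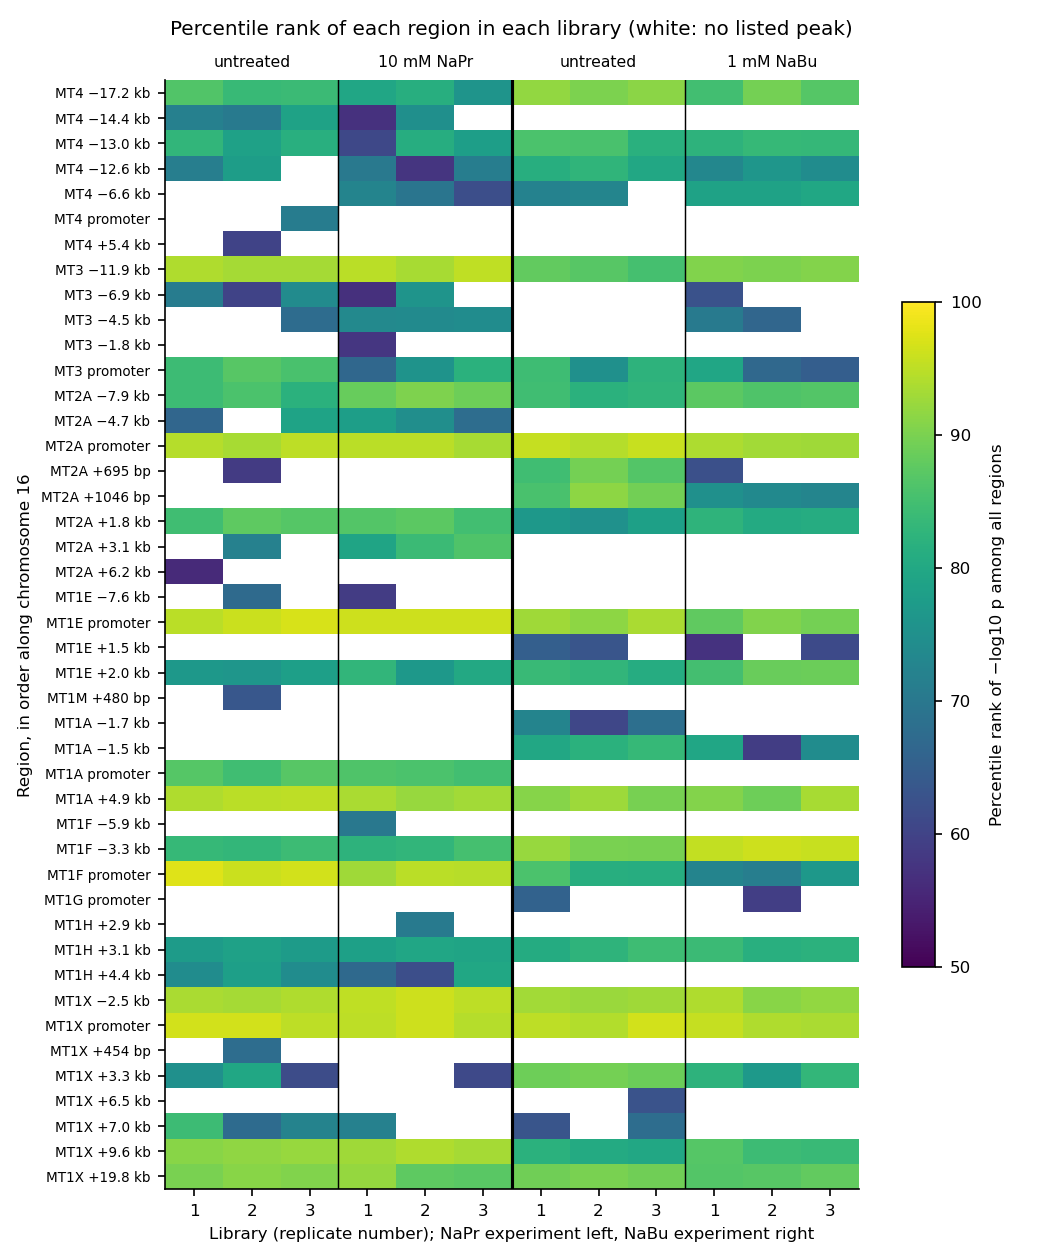
Percentile rank (colour, from 50 to 100) of the 44 regions of the metallothionein window, one row per region in genomic order and one column per library, with white for no listed peak. The MT2A, MT1E, MT1F, MT1X and MT3 promoters are filled in all 12 libraries, and the MT1A promoter is filled in the 6 libraries of the NaPr experiment and white in the 6 of the NaBu experiment.

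MT1A, a member of the widely expressed MT1 genes, was split by experiment rather than by treatment. Its promoter region (chr16:56638063-56638856) ranked 86.7, 84.7 and 87.0 in the untreated and 86.3, 85.9 and 84.9 in the NaPr libraries. In the NaBu experiment it had no listed peak in the 6 libraries. A region whose summit lay 1465 bp before the MT1A start showed the opposite, with no peak in the 6 libraries of the NaPr experiment and ranks of 80.0, 81.9 and 83.5 in the untreated and 79.6, 59.1 and 74.3 in the NaBu libraries. Near MT2A, a region 1046 bp after the start had peaks in the 6 NaBu-experiment libraries and in no other. Of the 35 cluster regions listed in 2 or more libraries, 2 were listed in all 6 libraries of the NaPr experiment and none of the other, against 1.99% of all such regions, and 2 showed the reverse, against 5.48%. These are descriptions without a test, and experiment, date and culture cannot be told apart.

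Treatment was then compared with no treatment inside each experiment, on ranks, with limma fitted across all regions listed in 2 or more of the 6 libraries and p-values adjusted over all of them. Regions with an adjusted p below 0.05 were called. In this bulk assay, fewer cells with an open site and less opening per cell cannot be told apart.

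NaPr left the metallothionein promoters without a called change. Among 29 cluster regions tested, 1 was called higher and 0 lower, with 8.99% of all 124067 regions called, 5.18% higher and 3.81% lower. At an unadjusted p below 0.05 there were 11 cluster regions (37.9%), against 21.8% of all regions. The median change was −0.08 percentile points in the cluster and 0.10 over all regions. Ranks of the treated and untreated libraries did not overlap in 6 regions that were higher and 5 that were lower, with a background of 14.6% and 13.5%. The split of calls over all regions depended on the scale: 57.6% were higher on ranks, 92.4% on tags over background, where the median log2 change was 0.21, and 38.1% on tags over the library median, which called 1 cluster region higher and 3 lower. Without untreated replicate 2, 3 of 28 cluster regions were higher, with 6940 of all 117160 regions. Without untreated replicate 3 there were 2 of 29, with 7534 of all 118137 regions.

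The region called after NaPr (chr16:56558077-56559017) lay in an intron of BBS2, which encodes a subunit of the BBSome of cilia, with its summit 6556 bp before the MT4 start. It had no peak in the 3 untreated libraries and ranked 72.5, 69.5 and 62.0 in the NaPr libraries, a change of 68.0 (SE 12.5, limma adjusted p = 0.0266). Such a gain (3 treated libraries, 0 untreated) was seen in 2.95% of all regions, and the converse loss, seen in 1.5%, occurred at 0 cluster regions. The tags at its summit were 9.59, 7.86 and 6.79 times background in the NaPr libraries. The call was lost when regions with a peak in a single library were also tested (limma adjusted p = 0.0595). The region's −log10 p was 7.21, 6.96 and 7.29 in the 3 NaPr libraries, whose lists ended at 4.25, 4.66 and 6.53. It could therefore not be tested when only peaks with −log10 p of at least 10 were kept. The region was also not among those tested on tags, among the top intervals or with a peak required in every library. In the NaBu experiment the same region ranked 72.2 and 72.7 in 2 untreated libraries, had no peak in untreated replicate 3, and ranked 78.7, 78.9 and 79.7 after NaBu, which did not pass the test (change 30.8, SE 20.8, adjusted p = 0.288) and did without untreated replicate 3 (change 6.67, adjusted p = 0.0279).

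Among the promoters, MT1F came nearest to the threshold after NaPr. Its ranks were 97.6, 96.0 and 96.6 untreated and 92.9, 94.7 and 94.7 treated, without overlap (change −2.62, SE 0.660, limma adjusted p = 0.0628). It passed among the regions with a peak in all 6 libraries (adjusted p = 0.0230), among the top 50000 intervals (adjusted p = 0.0466) and on tags over the library median (log2 change −0.59, adjusted p = 0.000127), but not on tags over background (log2 change −0.33, adjusted p = 0.360). MT3 ranked 84.2, 87.0 and 85.6 untreated and 66.7, 75.7 and 81.9 after NaPr, without overlap (change −10.8, SE 3.90, limma adjusted p = 0.175). Its tags passed over the library median (log2 change −0.82, adjusted p = 0.00440) but not over background (log2 change −0.57, adjusted p = 0.165). The differences at the MT2A region, whose rank here came from the summit at least 1092 bp before the start (0.09, SE 0.610), MT1E (0.25, SE 0.524), MT1A (−0.46, SE 1.12) and MT1X (−0.77, SE 0.656) were each less than 2 SE. A region 7939 bp before MT2A ranked 84.3, 85.8 and 81.9 untreated and 88.4, 90.4 and 89.0 after NaPr, all above the untreated libraries. Its rank change of 5.25 missed the threshold (SE 1.30, adjusted p = 0.0592), and its tags passed on both scales (log2 change 0.98, adjusted p = 0.00571 over background and 0.72, adjusted p = 0.00352 over the median). Without untreated replicate 2 its rank change also passed (6.13, adjusted p = 0.0428).

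**Figure D2:**
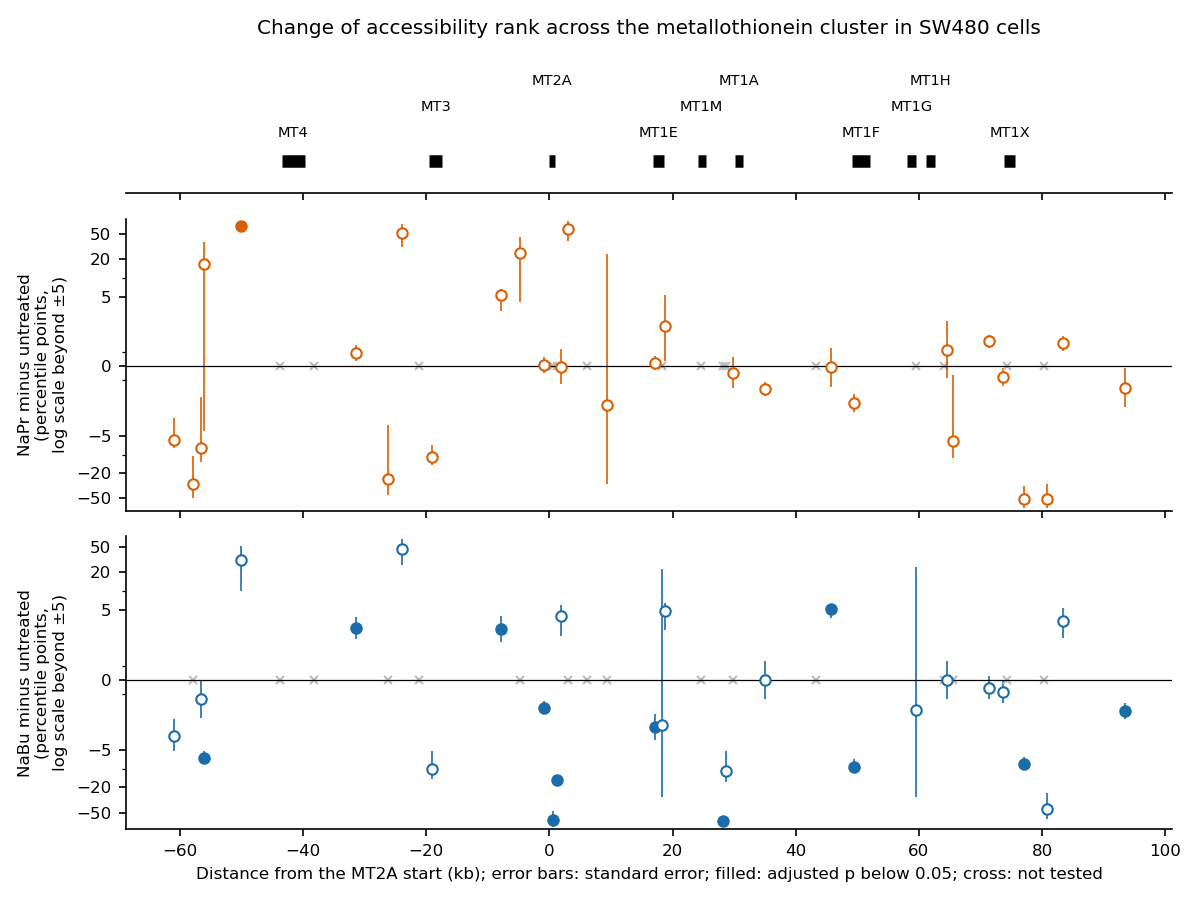
Difference in mean percentile rank between treated and untreated libraries (y axis, percentile points, logarithmic beyond 5 in either direction) at each region against its distance from the MT2A start (x axis, kb), with standard errors, filled points for called regions, crosses for regions not tested and the listed genes as black bars. After NaPr 1 point is filled, and after NaBu 3 filled points lie above zero and 9 below.

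After NaBu, the called regions in promoter windows of listed genes were lower, and those called higher lay outside every promoter window. Among 28 cluster regions tested, 3 were called higher and 9 lower, with 28.3% of all 123730 regions called, 15.8% higher and 12.5% lower. The lower calls made up 32.1% of the tested cluster regions. The median change was −2.09 percentile points in the cluster and 0.38 over all regions. Ranks did not overlap in 7 regions that were higher and 11 that were lower, with a background of 25.3% and 21.9%. By position, 5 of the 8 tested regions in promoter windows of listed genes were lower and 0 higher, 2 of 4 in promoters of other genes were lower, and of 16 outside every promoter window 3 were higher and 2 lower. These 5 include a region in a coding exon of MT2A and a region past its 3′ end. Of promoter regions described below, 0 were higher and 1 lower of 8 at zinc exporters, and 0 and 3 of 16 at zinc importers. They were 1 and 5 of 20 at metal response and redox genes. Markers had 0 and 1 of 13 for colon epithelium and 1 and 0 of 1 for other cell types. The direction counts depended on the measure. Ranks of fold enrichment called 0 of 28 cluster regions higher and 6 lower, with 14630 and 14097 of all 123730 regions. Windows around summits called 9 of 52 cluster windows higher and 7 lower, with 32312 and 28613 of all 231126 windows. Tags over background called 4 of 21 cluster regions higher and 10 lower, with 17412 and 20889 of all 72559 regions. Lower calls on ranks numbered 2 of 26 without untreated replicate 1, 4 of 28 without untreated replicate 2 and 4 of 27 without untreated replicate 3. Over all regions these fits called 14067 of 120763, 13088 of 119145 and 13349 of 119519 lower.

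MT2A, a widely expressed metallothionein, carried 3 of the 5 promoter-window calls. The region over its start (chr16:56606751-56608744, summit in an untranslated exon) ranked 95.6, 94.3 and 95.8 untreated and 93.8, 93.1 and 92.8 after NaBu, a change of −1.99 (SE 0.490, limma adjusted p = 0.0320). All treated libraries were below all untreated ones. Tags at the highest summit also fell (log2 change −0.51, SE 0.0943, adjusted p = 0.000220), but that summit lay at the start in the untreated and 153 or 154 bp before it in the treated libraries. Each summit was therefore also described on its own, a choice made after seeing the data. At the start, tags were 121, 105 and 121 times background untreated and 77.7, 68.2 and 65.5 after NaBu. At the summit next to it they were 100.3, 88.0 and 91.3 untreated and 86.7, 80.0 and 76.3 treated. At the most upstream summit they were 64.7, 78.1 and 76.8 untreated and 78.6, 71.8 and 63.2 treated. The groups did not overlap at the first and second of these summits and overlapped at the most upstream one. In the NaPr experiment, tags at the start were 95, 55.2 and 85.1 untreated and 85.3, 81.0 and 78.1 treated, with overlap. The rank call was lost without treated replicate 2 (adjusted p = 0.0893) or 3 (0.0932), without untreated replicate 1 (0.0974) or 3 (0.0896), and when regions were ranked by fold enrichment (adjusted p = 0.147) or built around summits. There the window over the start missed the threshold (change −1.48, SE 0.438, adjusted p = 0.0590), and the window over the upstream summit had a change of 3.15 (SE 1.25, adjusted p = 0.123).

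Past the MT2A 3′ end, a region (chr16:56609538-56609933) with its summit 1046 bp after the start lay in an exon of ENSG00000260823, a long noncoding RNA on the opposite strand. It ranked 85.6, 91.6 and 89.4 untreated and 75.2, 73.7 and 72.7 after NaBu, a change of −15.0 (SE 1.81, limma adjusted p = 0.00203). The treated and untreated libraries were well separated, with 60.1, 84.3 and 74.4 times background tags untreated and 35.6, 33.7 and 31.4 treated (log2 change −1.11, SE 0.128, adjusted p = 1.85e-06). This call was kept in 17 of 17 alternatives, including the 6 that left out a library. Between these regions, one with its summit in a coding exon of MT2A (chr16:56608917-56609416) ranked 84.7, 89.5 and 86.5 untreated and was listed only in treated replicate 1 after NaBu, at 62.2 (change −66.2, SE 18.0, adjusted p = 0.0450). That call was kept only without treated replicate 1 among the fits that left out a library, and the adjusted p without each other library was between 0.113 and 0.122. It was also lost by fold enrichment (adjusted p = 0.111).

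The local background around MT2A, which MACS2 takes as the expected pileup, also moved. At the highest summit of the region over the MT2A start it was 13.3, 13.5 and 14 times the genome-wide background untreated and 10.3, 9.88 and 9.69 times after NaBu, against a median of 2.40 over the 72559 regions with a peak in all 6 libraries. Its part in the ranks was not tested, and the tag pileups above do not divide by it.

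MT1E fell after NaBu and MT1X did not pass the test on ranks. MT1E (chr16:56625031-56626419) ranked 92.8, 91.5 and 93.7 untreated and 87.7, 90.5 and 89.5 treated, a change of −3.39 (SE 0.931, limma adjusted p = 0.0458). Its tags were 66.0, 55.9 and 67.5 times background untreated and 40.4, 49.1 and 45.3 treated, without overlap (log2 change −0.49, SE 0.118, adjusted p = 0.00201). The rank call was near the threshold. It was lost without treated replicate 1 (adjusted p = 0.0773) or 3 (0.1), without untreated replicate 1 (0.120), 2 (0.0501) or 3 (0.123), without a filter (0.0501) and around summits (0.0954). MT1X (chr16:56681819-56682617) ranked 95, 94.3 and 96.6 untreated and 95.7, 94.1 and 93.6 treated, with overlap (change −0.86, SE 0.809, adjusted p = 0.440). Its tags did fall, from 103, 89.9 and 116 to 87.6, 72.6 and 69.5 times background (log2 change −0.43, SE 0.111, adjusted p = 0.00369), so the call differed between scales. On tags over background, 52.8% of all 72559 regions tested were called after NaBu. The local background at MT1X also fell, from 10.1, 9.41 and 10.1 to 6.91, 6.49 and 6.57 times the genome-wide background. Its part in the MT1X rank was not tested.

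MT1F fell in rank after NaBu, and its tags did not pass the test. Its promoter region (chr16:56657379-56658602) ranked 85.8, 81.4 and 81.2 untreated and 72.5, 71.4 and 76.6 treated, a change of −9.32 (SE 2.17, limma adjusted p = 0.0266). The tags were 34.3, 25.1 and 26.1 times background untreated and 22.3, 21.9 and 25.4 treated, and these groups overlapped (log2 change −0.29, SE 0.152, adjusted p = 0.123). The local background there went the other way, from 3.79, 3.29 and 3.85 to 5.07, 4.99 and 5.07 times the genome-wide background. Its part in the lower rank was not tested. The rank call was lost without treated replicate 1 (adjusted p = 0.0641) or 2 (0.0638), without untreated replicate 1 (0.0647) or 2 (0.0526), and around summits (0.0529).

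MT3 ranked 84.5, 75.1 and 82.3 untreated and 79.5, 66.9 and 65.0 after NaBu, with overlap (change −10.1, SE 4.77, limma adjusted p = 0.147). Its tags passed (log2 change −0.66, adjusted p = 0.0280), and so did its rank without treated replicate 1 (change −14.7, adjusted p = 0.0386). The MT1G promoter peak was listed in untreated replicate 1 and treated replicate 2 only, and the MT1A, MT4, MT1M and MT1H promoters had no peak in this experiment, so that they could not be tested.

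**Figure D3:**
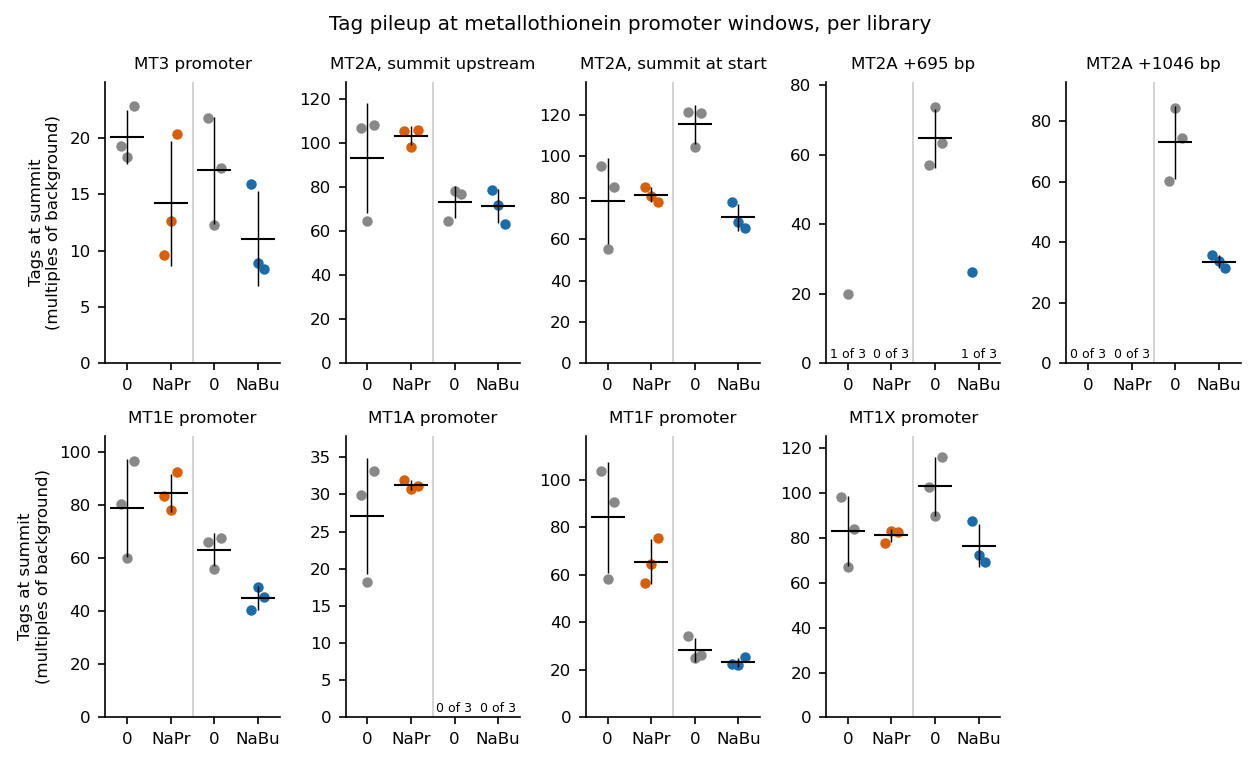
Tags at the summit as multiples of the genome-wide background (y axis, linear from 0) in promoter windows of listed genes with peaks in at least 5 libraries; points are libraries (0, untreated), horizontal marks with bars are mean ± SD (n = 3), and the grey line separates the experiments. The region over the MT2A start is drawn as 2 panels, its most upstream summit and its summit at the start. In the NaBu experiment the treated mean lies below the untreated mean at each MT2A summit drawn and at MT1E, MT1F, MT1X and MT3. It also does so in the window 1046 bp past the MT2A start. Treated and untreated libraries overlap at the upstream MT2A summit, MT1F and MT3.

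Upstream of MT1F, an intergenic region between MT1B and MT1F (chr16:56653802-56654749, summit 3309 bp before the MT1F start) rose after NaBu. It ranked 92.3, 89.9 and 89.7 untreated and 95.4, 96.2 and 95.9 treated, a change of 5.21 (SE 0.787, limma adjusted p = 0.00525). Its tags were 56.4, 42.6 and 44.6 times background untreated and 77.7, 82.4 and 79.0 treated, without overlap (log2 change 0.75, SE 0.115, adjusted p = 3.96e-05). The call was kept in 16 of 17 alternatives and lost when regions were ranked by fold enrichment (adjusted p = 0.123). After NaPr its ranks of 82.3, 83.0 and 85.4 overlapped the untreated 83.6, 83.0 and 84.2 (change −0.08, SE 1.42).

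The other regions that rose after NaBu lay between MT4 and MT2A. One was in an intron of BBS2 (chr16:56576748-56577490, summit 11950 bp before MT3) and ranked 87.9, 87.1 and 85.3 untreated against 90.5, 90.1 and 90.7 treated (change 3.67, SE 0.788, limma adjusted p = 0.02). It was lost without treated replicate 1 (adjusted p = 0.0520) or 3 (0.0598) and when ranked by fold enrichment (0.113). The intergenic region 7939 bp before MT2A (chr16:56600275-56601131), which also lay above its untreated libraries after NaPr, ranked 84.7, 82.0 and 82.7 untreated and 87.4, 86.2 and 86.6 after NaBu (change 3.64, SE 0.943, adjusted p = 0.0380). It was kept in 1 of the 6 fits that left out a library, without untreated replicate 1, and the other adjusted p values were between 0.0596 and 0.0909. It was also lost by fold enrichment (adjusted p = 0.103), without a filter (0.0518) and among regions with a peak in all 6 libraries (0.0703).

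Among the regions outside the promoters of listed genes that fell after NaBu, the peak lost from all treated libraries was at MT1JP, a transcribed metallothionein pseudogene between MT1M and MT1A. The region in its exon (chr16:56636525-56636994) ranked 72.6, 60.6 and 68.2 untreated and had no peak in the 3 NaBu libraries (change −67.1, SE 5.63, limma adjusted p = 0.000432). Such a loss was seen in 3.72% of all tested regions, and the converse gain, seen in 6.41%, occurred at 0 cluster regions after NaBu. The −log10 p at MT1JP was 18.9, 7.59 and 12.3 untreated, and the lists of the 3 NaBu libraries ended at 8.54, 9.21 and 8.84. A peak as weak as that of untreated replicate 2 would therefore not have been listed after NaBu. The untreated tags of this region were 10.9, 7.57 and 10.1 times background, and the call was lost when peaks with −log10 p under 10 were left out (adjusted p = 0.129). It had no peak in the 6 libraries of the NaPr experiment.

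Downstream of MT1X, a region in an intron of the long noncoding RNA ENSG00000259827 (chr16:56685259-56685999, summit 3301 bp after the MT1X start) also lay within 1 kb of the pseudogene DPPA2P4. It ranked 88.9, 89.6 and 88.8 untreated and 82.3, 76.8 and 83.1 after NaBu (change −8.39, SE 1.81, limma adjusted p = 0.0203). Its tags fell from 56.4, 56.8 and 55.5 to 33.1, 26.4 and 33.4 times background (log2 change −0.87, adjusted p = 1.75e-05). The rank call was lost without untreated replicate 1, 2 or 3 (adjusted p = 0.0618, 0.0667 and 0.0584), by fold enrichment (0.0672) and among the top 50000 intervals (0.0704). After NaPr this region ranked 75.1, 79.7 and 61.6 untreated, and was listed only in treated replicate 3, at 61.0 (change −51.8, SE 19.7, adjusted p = 0.195). Without that library the NaPr change passed (change −72.1, adjusted p = 0.0347), as it did when the peaks of those 6 libraries were merged alone (adjusted p = 0.0325) and around summits (0.0260).

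The other pair of lower regions lay at the ends of the window. A region in a BBS2 intron (chr16:56552351-56552671, summit 12585 bp before MT4) ranked 81.4, 82.8 and 79.9 untreated and 73.1, 76.2 and 74.4 after NaBu (change −6.80, SE 1.53, limma adjusted p = 0.0235). It was lost without untreated replicate 1 (adjusted p = 0.0579) or 2 (0.0595), around summits (0.0775) and among the top 50000 intervals (0.117). The last region, 19802 bp after the MT1X start (chr16:56701391-56702705), ranked 89.2, 89.9 and 89.2 untreated and 86.7, 87.0 and 88.0 treated (change −2.25, SE 0.558, adjusted p = 0.0330). It was kept only without treated replicate 3 among the fits that left out a library, and the other adjusted p values were between 0.0563 and 0.0808. It did not pass on tags (log2 change −0.32, adjusted p = 0.0566), around summits (adjusted p = 0.145), among the top 50000 intervals (0.0634) or among regions with a peak in all 6 libraries (0.129).

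**Figure D4:**
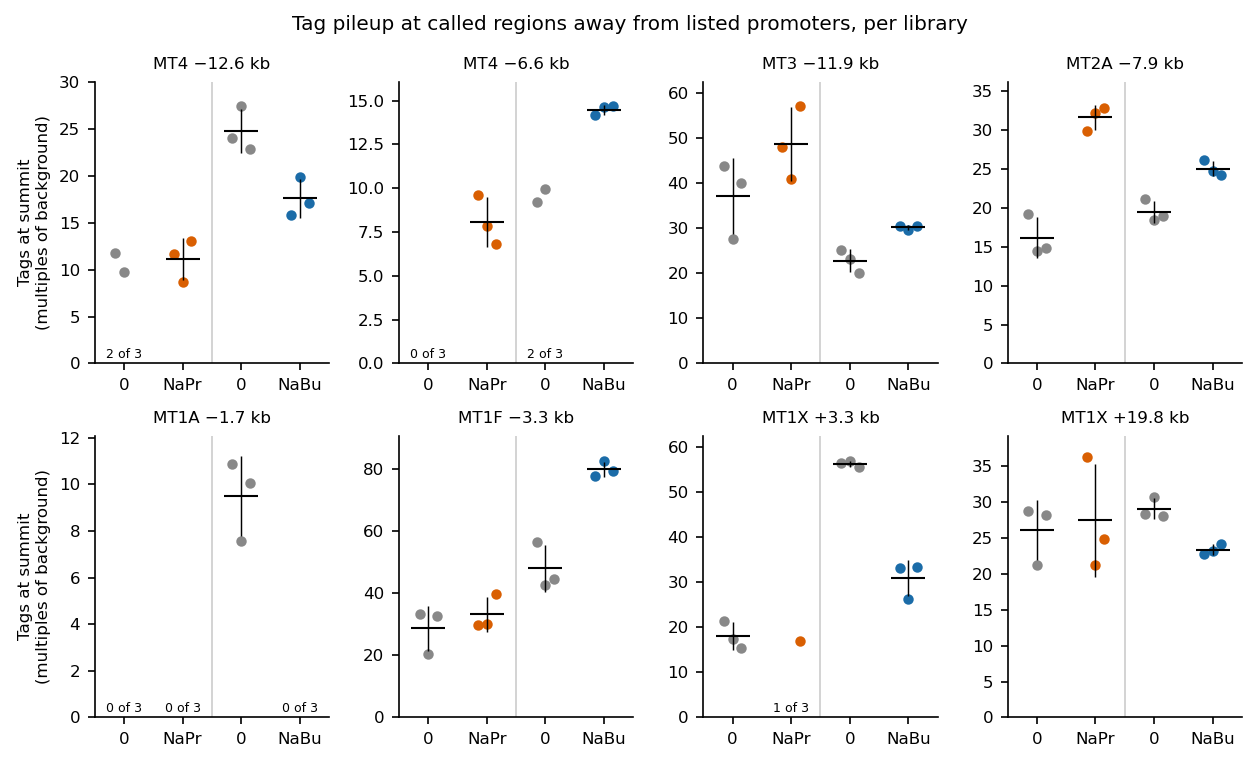
Tags at the summit as multiples of the genome-wide background (y axis, linear from 0) at the 8 called regions outside the promoters of listed genes, named by the nearest listed start and the distance in kb; points are libraries (0, untreated), marks with bars are mean ± SD (n = 3), and the number of libraries with a peak is printed where it is under 3. The region before MT1F rises to 77.7 or more times background in the NaBu libraries, and the region after MT1X falls from at least 55.5 to at most 33.4.

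Of the 12 regions called after NaBu, 9 were tested after NaPr, where limma called 0 and 3 had an unadjusted p below 0.05. Over all regions tested after NaPr, 8.99% were called and 21.8% had an unadjusted p below 0.05. Whether the NaPr and NaBu changes differ was not tested.

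The length of the window covered by peaks overlapped between treated and untreated libraries in both experiments. Peaks covered 14172 ± 873 bp in untreated and 13403 ± 1001 bp in NaPr libraries (SD, n = 3 each, two-sided exact permutation p = 0.5). They covered 14719 ± 1152 bp in untreated and 15086 ± 268 bp in NaBu libraries (exact permutation p = 0.6). With 3 against 3 libraries the smallest p this test can give is 0.1. Between 23 and 30 of the 44 regions had a peak in a library.

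**Figure D5:**
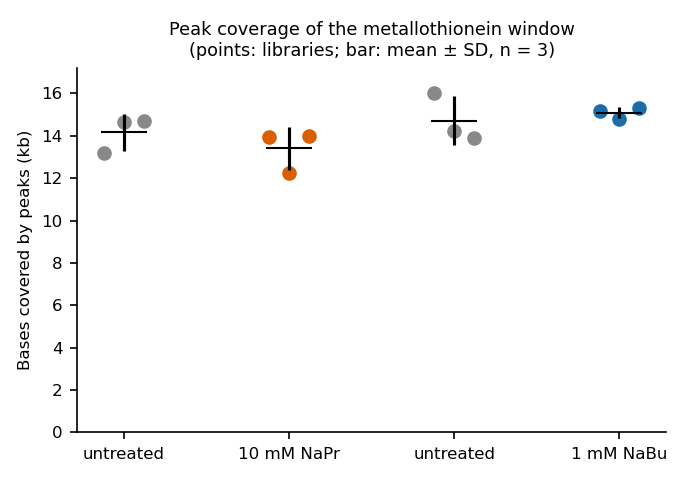
Bases of the metallothionein window covered by listed peaks (y axis, kb, from 0) in each SW480 library, with the mean ± SD of each group (n = 3). The 12 libraries lie between 12247 and 16034 bp, and treated and untreated libraries overlap in both experiments.

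Other genes of zinc handling and the oxidative stress response were described by their promoter regions. Among the SLC30 zinc exporters, 7 regions were tested after NaPr with 0 higher and 0 lower by limma (2 at an unadjusted p below 0.05, median change 0.19), and 8 after NaBu with 0 higher and 1 lower (median −0.26). The lower region was that of SLC30A4, a vesicular exporter (change −4.34, SE 0.797, adjusted p = 0.0113). These shares stand beside the same backgrounds of all regions as above, with 21.8% at an unadjusted p below 0.05 after NaPr. Among the SLC39 zinc importers, 12 were tested after NaPr with 1 higher and 3 lower (median −0.98). SLC39A14 fell from 97.2 ± 0.430 to 95.3 ± 0.538 (adjusted p = 0.0316), SLC39A9 rose (change 2.22, adjusted p = 0.0340), and SLC39A5 and the smaller of 2 SLC39A1 regions lost their peaks (adjusted p = 0.0267 and 0.0266). After NaBu 16 were tested with 0 higher and 3 lower (median −2.77), namely SLC39A5 (change −14.7, SE 1.88, adjusted p = 0.00259) and the smaller of 2 regions at SLC39A7 (−16.4, adjusted p = 0.00423) and SLC39A9 (−72.1, adjusted p = 0.000376).

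Of 14 metal response and redox genes, all had a promoter peak in 12 of 12 libraries. After NaPr limma called 0 of 16 regions, with 7 at an unadjusted p below 0.05 (median −0.69). Over all regions these shares were 8.99% and 21.8%. After NaBu 1 of 20 was higher and 5 were lower (median −1.93), against the 15.8% and 12.5% of all regions. FTL, the ferritin light chain, held the higher region (change 1.28, SE 0.278, adjusted p = 0.0208) and also a lower one beside it (−6.28, adjusted p = 0.0382). FTH1, the ferritin heavy chain, fell (−7.48, SE 1.73, adjusted p = 0.0258), as did NFE2L2, which encodes the antioxidant regulator NRF2 (−4.83, SE 1.07, adjusted p = 0.0222), and the smaller of 2 regions at the catalase gene CAT (−73.5, adjusted p = 0.000376). MTF1, the metal-sensing factor, ranked 98.5 ± 0.380 untreated and 98.7 ± 0.271 after NaBu (change 0.29, SE 0.255, adjusted p = 0.408).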

How the data were processed

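Per the labels and the study's methods, the authors trimmed reads with cutadapt 1.9.1, aligned them with Bowtie2 2.3.1 to GRCh38 and called peaks in each library with MACS2 2.1.0, after demultiplexing with bcl2fastq 2.17.1. The deposited peak lists give for each summit a fold enrichment (a ratio to the expected pileup), a −log10 p and a −log10 q-value, and a score that the authors' caller takes from the −log10 p. Lists were numbered up to 300000 by p, so that the weakest listed peak differs between libraries. Libraries of a group shared at most 0.796% identical intervals and each was counted.

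Intervals of the 12 lists were merged where they overlapped by at least 1 bp. Ranks were tested with limma 3.58.1 (R 4.3.3, empirical Bayes with trend, two-sided, Benjamini-Hochberg over all regions tested). Summit tags were solved from fold and p (MACS2 adds 1 tag to both sides of the fold), which returned 100% of summits within 0.000648 of the listed −log10 p, and were divided by the lowest expected pileup of the list. Genes came from GENCODE 44, with promoter windows of 1 kb on either side of the start, and sequences from RefSeq and GRCh38. The named regions were chiefly those in promoter windows of listed genes, those called elsewhere, and up to 4 called genes per list and comparison. Uncalled regions in promoter windows of other window genes, such as those at BBS2 and the pseudogenes MT1DP and MT1L, were not described. Regions with a peak in only 1 of 6 libraries were not tested. Members, lists and tests were chosen with earlier results of these data known. The fits were tested on simulated data for regions with a peak in all 6 libraries. Those data held no rank of 0, so calls that rest on a missing peak were not covered. Same-numbered replicates did not deviate together, so no block was used in the reported fits. Alternatives of 12 kinds were tried, with leaving out each of 6 libraries counted as 1, giving up to 17 other fits per region.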

Additional observations from a re-analysis of the deposited data

How the results depend on the processing

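Of the 13 regions called, 0 changed direction under any alternative run. For NaPr, higher cluster calls (1 as reported) became 2 with windows around summits and 0 with no filter and with the replicate block. They were also 0 among the top 50000 intervals and with a peak required in all 6 libraries, where the region called as reported was not among those tested. Lower calls (0 as reported) became 1 when only the 6 libraries were merged, 1 among the top 50000 intervals, 1 with a peak in all 6 libraries, 2 around summits and 3 on tags over the library median. Leaving out each library gave 1 to 3 higher and 0 to 1 lower. For NaBu, higher calls (3 as reported) became 0 when ranked by fold enrichment, 9 around summits and 1 with the replicate block, and 2 to 4 when a library was left out. Lower calls (9 as reported) became 4 among the top 50000 intervals, 2 with the block and 2 to 7 when a library was left out, with 2 without untreated replicate 1. Covered bases changed by 367 bp after NaBu, by −443 among the top 50000 intervals and by −233 without the flanks, and by −48.3 to 1025 when a library was left out. The cause of these changes was not tested. Replicate numbers did not pair the libraries (correlations of deviations from 0.0138 to 0.0470 for NaPr and 0.00369 to 0.0118 for NaBu), and the block left 0 of 124067 regions called after NaPr, where 23311 had an unadjusted p below 0.05, and 15959 higher and 12303 lower after NaBu. The calls left in the cluster with the block were the region before MT1F, the region past the MT2A 3′ end and MT1JP. Over all regions, NaPr calls numbered 6424 higher and 4726 lower as reported, 4763 and 3135 by fold enrichment, 8800 and 720 on tags over background, 7971 and 12963 over the median, 1701 and 1573 with no filter, 3925 and 2602 at −log10 p of at least 10, 3751 and 3792 among the top 50000 intervals and 10115 and 7579 around summits. NaBu calls were 19492 and 15487 as reported, 14630 and 14097 by fold enrichment, 10662 and 9709 among the top 50000 intervals and 32312 and 28613 around summits. On tags over background they were 17412 and 20889, and over the median 17703 and 20770. Depth limits what an unlisted peak means, since each list ends at its own p.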
